A study of Homo sapiens with 6 samples.

Results

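The expression of 10 genes that restrain signalling through the kinase ERK was examined in AsPC-1 cells, an established line of human pancreatic ductal cancer cells. The genes were picked by symbol as a known group, at a time when earlier results of these data were known, and each was found once among the 58735 genes of the table. They encode 5 dual-specificity phosphatases (DUSP1, DUSP4, DUSP5, DUSP6 and DUSP7), 3 Sprouty proteins (SPRY1, SPRY2 and SPRY4) and 2 Sprouty-related proteins (SPRED1 and SPRED2). In the Vector group (n = 3) the cells, labelled as wild type, had received an empty lentivirus, and in the OE-MMP28 group (n = 3) a lentivirus with a cDNA of MMP28, which encodes a matrix metalloproteinase that cells secrete. The virus also carried GFP and puromycin resistance, so that stable populations were obtained by selection. The labels do not say whether the samples of a group were separate cultures, so the p-values measure the spread between these samples, which may be technical.

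ERK is the last kinase of a cascade that runs from receptor tyrosine kinases through RAS, RAF and MEK, and active ERK switches on a set of genes whose products act back on the same cascade. Dual-specificity phosphatases remove the activating phosphates from ERK or related MAP kinases, Sprouty proteins act between the receptor and RAS or RAF, and SPRED proteins hold back RAS by bringing the RAS inactivator neurofibromin to the membrane. Because many of these genes are themselves switched on by ERK, their transcripts are often read as a record of ERK output in tumours with an active RAS pathway, including pancreatic cancer.

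Total counts were between 13633249 and 14985715 in the Vector libraries and between 15568066 and 16691458 in the OE-MMP28 libraries. MMP28 itself stood at 7.57 ± 2.11 FPKM (SD, n = 3) in Vector cells and at 14.0 ± 1.01 FPKM in OE-MMP28 cells, where FPKM are fragments per kilobase, also divided by library size. Counts of mitochondrial genes took 11.9% to 14.8% of the Vector libraries and 8.80% to 11.9% of the OE-MMP28 libraries, and whether this bears on the feedback genes was not tested. The 6 ductal epithelial markers summed to between 2579 and 3520 FPKM in the Vector group and between 3517 and 4305 FPKM in the OE-MMP28 group, but KRT19 (log2 fold change 0.71) and CDH1 (-0.59) were called in opposite directions. This sum was mostly KRT8, KRT18 and KRT19, while KRT7 had means of only 1.14 FPKM in the Vector group and 1.81 FPKM in the OE-MMP28 group. Of 6 macrophage markers, PTPRC and CD163 did not pass 3 counts in any library, and the sum of the list, which was almost all LYZ, was 164 to 186 FPKM in the Vector group and 106 to 146 FPKM in the OE-MMP28 group. Of 6 fibroblast markers, COL1A2 and COL3A1 did not pass 3 counts, and the sum, almost all LUM, was 33.9 to 40.9 FPKM in the Vector group and 39.3 to 57.0 FPKM in the OE-MMP28 group. The part of these markers in the results below was not tested. In such bulk samples, fewer cells that express a gene and less RNA of it per cell cannot be told apart.

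All 10 feedback genes passed the filter on low counts and were tested. DUSP5, DUSP7 and DUSP1 were higher in the OE-MMP28 group, SPRY2 was lower, and the other 6 did not pass an adjusted p of 0.05 (edgeR's quasi-likelihood test, Benjamini-Hochberg over all 15319 genes tested). Thus 3 of 10 were called higher where 11.7% of all tested genes were, 1 of 10 was called lower where 11.6% were, and 4 of 10 were called in either direction where 23.4% were. The OE-MMP28 libraries lay wholly above the Vector libraries for 5 of the 10 genes (19.5% of all tested genes) and wholly below for 2 (18.6%), and the groups overlapped for 3. The median log2 fold change of the 10 genes was 0.22, against 0.01 over all tested genes. Before adjustment 7 of the 10 had a p under 0.05, as had 5487 of the 15319 tested genes, and 3 of these 7 (DUSP4, SPRY4 and SPRED2) did not pass after it. The called rises were thus all among the phosphatases, and the called fall was a Sprouty gene, but this depends on which genes passed the threshold. Among genes not called, SPRY4 (log2 fold change 0.32) was close to the phosphatase DUSP4 (0.34), and the phosphatase DUSP6 stood at 0.05. Whether the phosphatases as a class differed from the Sprouty and SPRED genes was not tested.

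**Figure D1:**
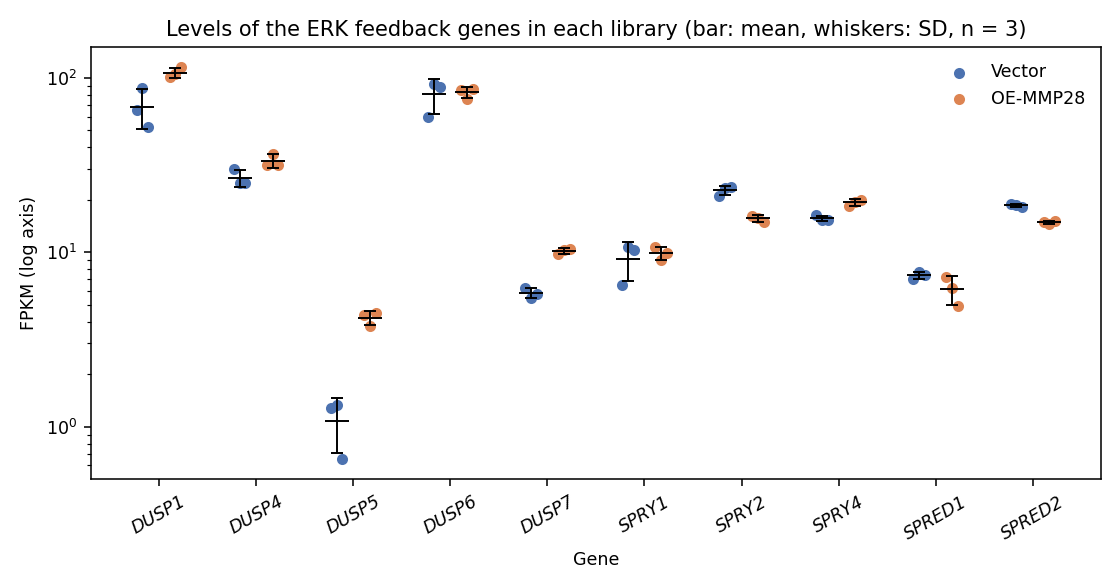
FPKM of the 10 feedback genes on a log axis, with 1 point per library, Vector libraries in blue and OE-MMP28 libraries in orange, the mean as a bar and the SD as whiskers (n = 3 per group). The points of the groups do not overlap for DUSP1, DUSP4, DUSP5, DUSP7 and SPRY4 (OE-MMP28 above) or for SPRY2 and SPRED2 (OE-MMP28 below), and DUSP6 and SPRY1 each have a low Vector point.

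Upstream sequences of called genes are shown to let a reader compare the letters next to start sites of genes that moved in different directions. The counts were made per gene, so the use of single start sites was not measured. Sequences from RefSeq on GRCh38.p14 were examined for 8 of the 10 genes, all but DUSP4 and DUSP5. The 250 bases before the start follow for DUSP1 (chr5:172771196-172771445, minus strand), DUSP7 (chr3:52056572-52056821, minus strand) and SPRY2 (chr13:80341127-80341376, minus strand), none of which overlap an exon of GENCODE 29. The DUSP7 and SPRY2 starts of RefSeq lie outside the GENCODE 29 gene, and SPRY2 has 3 entries, of which the most distal is shown. Capitals mark the cAMP response element TGACGTCA, its core site TGACG and the ETS site CCGGAA on either strand.
DUSP1: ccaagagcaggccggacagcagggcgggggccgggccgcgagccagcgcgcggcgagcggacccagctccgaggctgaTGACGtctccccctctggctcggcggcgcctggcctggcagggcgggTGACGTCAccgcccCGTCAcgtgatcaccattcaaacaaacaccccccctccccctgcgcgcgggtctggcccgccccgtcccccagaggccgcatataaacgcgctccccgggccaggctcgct
DUSP7: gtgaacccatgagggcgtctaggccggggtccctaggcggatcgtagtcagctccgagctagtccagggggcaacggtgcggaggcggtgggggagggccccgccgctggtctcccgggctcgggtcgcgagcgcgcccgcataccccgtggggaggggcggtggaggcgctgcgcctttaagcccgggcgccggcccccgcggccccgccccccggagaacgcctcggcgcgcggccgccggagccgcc
SPRY2: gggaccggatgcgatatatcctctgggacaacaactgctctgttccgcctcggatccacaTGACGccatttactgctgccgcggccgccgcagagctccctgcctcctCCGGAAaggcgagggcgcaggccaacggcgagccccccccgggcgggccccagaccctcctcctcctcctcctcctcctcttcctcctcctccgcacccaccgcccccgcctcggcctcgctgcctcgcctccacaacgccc
In the DUSP1 sequence a full cAMP response element began 125 bases before the start, and core sites began at 172, 125, 122 and 111 bases before it, of which those at 125 and 122 overlap each other inside the full element. The full element occurred in 1.65% and the core site in 21.2% of the 35116 promoters of this length. The SPRY2 sequence held a core site at 190 and an ETS site at 142 bases before its start, and 14.5% of all promoters held the ETS letters. The other SPRY2 entries, among them the one whose start lies in a GENCODE 29 transcript, had 0 matches of any motif searched. Among genes not called, SPRY4 also held a core site, at 68 bases, and an entry of SPRY1 an ETS site, at 67 bases before the start. DUSP7 held none of these, only GC boxes (GGGCGG, in 42.6% of promoters) at 94 and 44 bases before the start. GC boxes also occurred in the sequences shown for DUSP1 (4) and SPRY2 (2). The GC content was 78.4% for DUSP7, 74.4% for DUSP1 and 70.4% for the SPRY2 entry shown, against a median of 58.0% over all promoters. The other SPRY2 entries had 41.2% and 62.4%. Both strands were also searched for the AP-1 site TGANTCA (6.57% of promoters), the Capicua sites TGAATGAA (1.40%) and TGAATGGA (0.832%) and the CArG box (1.16%), with no match in any entry of the 8 genes. The E-box CACGTG (6.34%) was found once, in DUSP1 at 108 bases before the start and overlapping the core site at 111, and the EGR site GCGGGGGCG (4.72%) in SPRY1 and SPRY2. These are matches of letters, and no binding was measured.

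DUSP1 encodes a nuclear phosphatase of the immediate-early class that acts on p38 and JNK as well as ERK. The gene (ENSG00000120129) spans 172768090 to 172771195 on the minus strand of chromosome 5 (GRCh38) and has 4 exons. Its level was 65.7, 87.7 and 52.3 FPKM in Vector replicates 1, 2 and 3 and 101, 105 and 116 FPKM in OE-MMP28 replicates 1, 2 and 3. Every OE-MMP28 library was above every Vector library, and the Vector libraries were the more scattered, with a mean of 68.6 ± 17.9 against 107 ± 7.63 FPKM (SD, n = 3). The log2 fold change was 0.65 (SE 0.17, 95% interval 0.30 to 1.01, adjusted p = 0.00873), a 1.57-fold rise. Without Vector replicate 3, the lowest of the Vector libraries, it was 0.49 (adjusted p = 0.0839), so the call rests on that library.

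The DUSP1 transcript carries AU-rich elements, which mark short-lived transcripts for decay. Its 3′ UTR of 672 bases held the pentamer ATTTA 4 times, or 5.95 per kilobase, a density at the 94.1 percentile of the 11720 tested genes with a usable 3′ UTR, whose median was 1.69 per kilobase. The longer nonamer TTATTTATT occurred 2 times there and 1 time in the 3′ UTR of DUSP4, and in none of the other 8 genes, whereas 8.78% of the 11720 genes held it. A stretch of 30 bases of this UTR, from its base 82 to its base 111, shows overlapping pentamers, in capitals.
DUSP1 3′ UTR: ggctcgagagggctggtccttATTTATTTA
DUSP5 and DUSP7, the other genes that rose, had no ATTTA in 3′ UTRs of 1118 and 1896 bases, and SPRY2, which fell, had 2 in 782 bases. SPRED1 had the most copies of the 10 genes, 24 in 5585 bases, and did not change by the test. The density of the pentamer therefore did not separate called from uncalled genes among the 10.

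DUSP5 encodes a nuclear phosphatase that acts on ERK and not on p38 or JNK, and it holds dephosphorylated ERK in the nucleus. The gene (ENSG00000138166) lies on the plus strand of chromosome 10, from 110497838 to 110511544. It had the lowest level of the 10 genes in both groups. The Vector libraries read 1.28, 1.33 and 0.649 FPKM, which came from 51, 47 and 25 counts. The OE-MMP28 libraries read 4.38, 3.76 and 4.48 FPKM, from 181, 156 and 197 counts. The lowest OE-MMP28 library was thus well above the highest Vector library, and Vector replicate 3 was apart from the other Vector libraries on the low side. The means were 1.08 ± 0.379 and 4.21 ± 0.387 FPKM (SD, n = 3). The difference was the largest of the 10 genes, with a log2 fold change of 1.97 (SE 0.26, adjusted p = 2.52e-05) or 3.91-fold (95% interval 2.67 to 5.71), and 124 of the 15319 tested genes had a larger rise. Leaving out single libraries gave values from 1.70 to 2.13, all past the threshold. The 28 tested neighbours within 5 Mb on either side had a median log2 fold change of -0.49, so that DUSP5 moved against its chromosomal surroundings.

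DUSP4 encodes the third nuclear phosphatase of the set, which acts on ERK, p38 and JNK and is also switched on by ERK. The gene (ENSG00000120875) lies on the minus strand of chromosome 8, from 29333064 to 29350668. Its level was 30.1, 25.1 and 24.8 FPKM in the Vector libraries and 31.7, 36.8 and 31.8 FPKM in the OE-MMP28 libraries. The groups did not overlap, but Vector replicate 1 was within 2 FPKM of the nearest OE-MMP28 library. The log2 fold change of 0.34 (SE 0.15, 95% interval 0.03 to 0.64) did not pass the threshold (adjusted p = 0.101). The 49 tested neighbours of DUSP4 within 5 Mb had a median of -0.34, and taken relative to them the value was 0.68 (adjusted p = 0.00371).

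DUSP6 encodes the cytoplasmic phosphatase most specific for ERK and is among the most widely used transcripts of ERK output. The gene (ENSG00000139318) lies on the minus strand of chromosome 12, from 89347232 to 89353271. With 80.6 ± 18.1 FPKM (SD, n = 3) it had the highest mean of the 10 genes in the Vector group, and it stood at 82.8 ± 6.08 FPKM in the OE-MMP28 group. The Vector libraries read 59.8, 92.8 and 89.2 FPKM, and the OE-MMP28 libraries read 85.8, 75.8 and 86.8 FPKM. Vector replicate 1 was the lowest library of all 6, and the other Vector libraries were the highest. The log2 fold change was 0.05 (SE 0.16, adjusted p = 0.863) with a 95% interval of -0.29 to 0.39, so that a change of either sign within those bounds was not excluded. Without Vector replicate 1 its sign turned, to -0.13 (adjusted p = 0.618). The antisense gene AC024909.2 covers 40.5% of the exon length of DUSP6 and had 78 to 123 counts per library (log2 fold change 0.06, adjusted p = 0.884), and without knowledge of the strand setting of the counting, reads of the pair cannot be told apart there.

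DUSP7 encodes the other cytoplasmic phosphatase of the set, close to DUSP6 in sequence and in its preference for ERK. The gene (ENSG00000164086) lies on the minus strand of chromosome 3, from 52048919 to 52056550. Its level was 6.27, 5.50 and 5.80 FPKM in the Vector libraries and 9.77, 10.4 and 10.4 FPKM in the OE-MMP28 libraries. Both groups were tight and well apart, at 5.86 ± 0.384 and 10.2 ± 0.358 FPKM (SD, n = 3). The rise was 1.75-fold, a log2 fold change of 0.81 (SE 0.15, 95% interval 0.49 to 1.13, adjusted p = 0.000853). It stayed past the threshold under all 15 other settings tried, with values from 0.71 to 0.86. Among the cytoplasmic phosphatases, the one at the lower level thus rose and the other did not pass the test, and the ratio of DUSP7 to DUSP6 was 0.105, 0.0593 and 0.0650 in the Vector libraries and 0.114, 0.137 and 0.120 in the OE-MMP28 libraries.

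**Figure D2:**
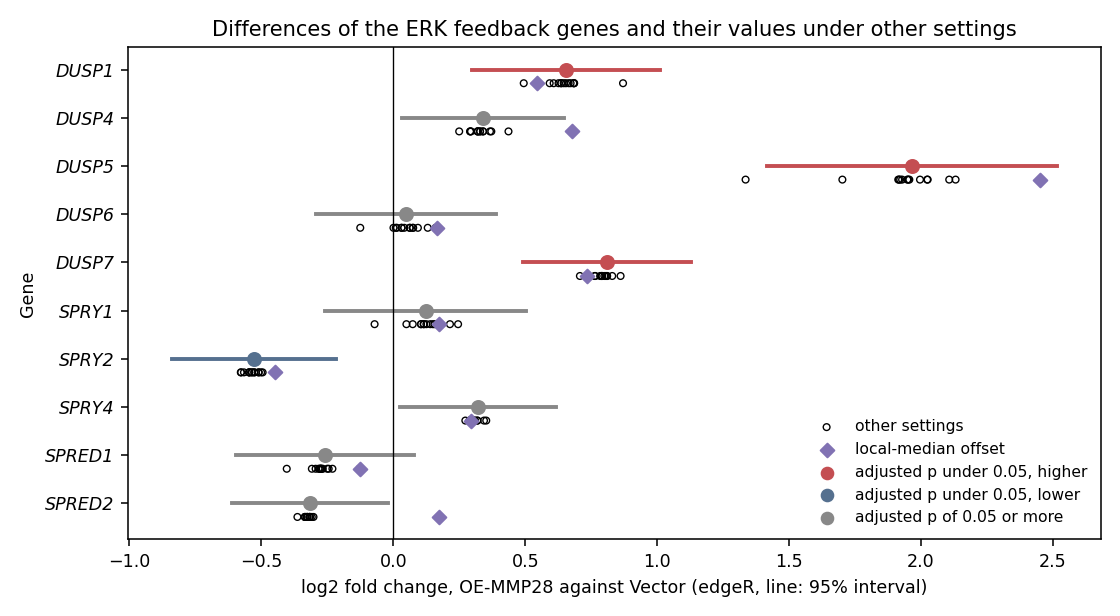
Log2 fold change of each feedback gene, OE-MMP28 against Vector, from edgeR (large point) with its 95% interval (line), red or blue where the adjusted p was under 0.05 and grey otherwise. Small circles give the values under 14 other settings and the diamond the value relative to the median of the neighbouring genes. DUSP1, DUSP4, DUSP5, DUSP7 and SPRY4 lie right of 0 in every setting, and SPRY2 and SPRED1 lie left of 0 in every setting. The diamond of SPRED2 is on the other side of 0 from its main value.

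The Sprouty genes did not move as a block. SPRY2 encodes a membrane-associated inhibitor that binds the adaptor GRB2 and the ubiquitin ligase CBL. The gene (ENSG00000136158) lies on the minus strand of chromosome 13, from 80335976 to 80340951. It read 21.1, 23.4 and 23.7 FPKM in the Vector libraries and 16.3, 15.7 and 14.97 FPKM in the OE-MMP28 libraries, so every OE-MMP28 library was below every Vector library. The mean went from 22.7 ± 1.40 to 15.6 ± 0.646 FPKM (SD, n = 3), which gave a log2 fold change of -0.53 (SE 0.15, 95% interval -0.84 to -0.22, adjusted p = 0.0141) or a level 1.44-fold lower. The adjusted p was 0.0816 without Vector replicate 3 (log2 fold change -0.50) and 0.0659 without OE-MMP28 replicate 2 (log2 fold change -0.55), so the size held and the call did not.

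SPRY4, an inhibitor that acts on RAF activation, went the other way in size. The gene (ENSG00000187678) lies on the minus strand of chromosome 5, from 142310427 to 142326455. Its level was 16.3, 15.3 and 15.3 FPKM in the Vector libraries and 18.4, 19.5 and 20.1 FPKM in the OE-MMP28 libraries. The groups were apart, with a log2 fold change of 0.32 (SE 0.14, 95% interval 0.02 to 0.62) that did not pass the threshold (adjusted p = 0.110). The ratio of SPRY4 to SPRY2, formed from FPKM within each library, was 0.773, 0.655 and 0.644 in the Vector libraries and 1.13, 1.24 and 1.34 in the OE-MMP28 libraries, higher in all 3 of the latter. The level of this ratio depends on the gene lengths used, which in the table are 6565 bases for SPRY4 and 3038 bases for SPRY2 but 2379 and 2708 bases for their principal transcripts, while its change between the groups does not. The difference of the log2 ratio was 0.85, with a two-sided exact permutation p of 0.1, the smallest that 3 against 3 libraries allow. This ratio was picked after the values had been seen. Every OE-MMP28 library was already above every Vector library for SPRY4 and below every one for SPRY2. The ratio therefore had to separate the groups, so the permutation p was fixed beforehand and adds no support.

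SPRY1, an inhibitor of receptor signalling upstream of RAS, showed no difference that the test could detect. The gene (ENSG00000164056) lies on the plus strand of chromosome 4, from 123396795 to 123403760. It read 6.54, 10.7 and 10.3 FPKM in the Vector libraries and 10.8, 9.01 and 9.94 FPKM in the OE-MMP28 libraries, with Vector replicate 1 lowest of the 6 as for DUSP6. The log2 fold change was 0.12 (SE 0.18, 95% interval -0.26 to 0.50, adjusted p = 0.674) and became -0.07 without that library (adjusted p = 0.819).

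The SPRED genes were lower in mean, but neither passed the test. SPRED2 (ENSG00000198369, chromosome 2, 65310851 to 65432637, minus strand) read 19.0, 18.6 and 18.3 FPKM in the Vector libraries and 14.9, 14.6 and 15.2 FPKM in the OE-MMP28 libraries. These groups were tight and did not overlap, and the log2 fold change was -0.32 (SE 0.14, 95% interval -0.61 to -0.02, adjusted p = 0.114). Its 63 tested neighbours within 5 Mb had a median log2 fold change of -0.49, and relative to them SPRED2 stood at 0.17 (adjusted p = 0.452). The lower level of SPRED2 therefore was not larger than that of its chromosomal surroundings. SPRED1 (ENSG00000166068, chromosome 15, 38252326 to 38357249, plus strand), the gene mutated in Legius syndrome, read 7.01, 7.69 and 7.45 FPKM in the Vector libraries and 7.24, 6.21 and 4.94 FPKM in the OE-MMP28 libraries. The OE-MMP28 libraries were spread and overlapped the Vector libraries, with a log2 fold change of -0.26 (SE 0.16, 95% interval -0.60 to 0.08, adjusted p = 0.262).

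On the per-length scale of FPKM the order of the levels also differed between the groups, although a rank between genes depends on the gene lengths used. In the Vector group the means ran DUSP6, DUSP1, DUSP4, SPRY2, SPRED2, SPRY4, SPRY1, SPRED1, DUSP7 and DUSP5 from high to low, and of these neighbours only DUSP6 with DUSP1 and SPRY1 with SPRED1 had overlapping ranges. In the OE-MMP28 group the order was DUSP1, DUSP6, DUSP4, SPRY4, SPRY2, SPRED2, DUSP7, SPRY1, SPRED1 and DUSP5, with overlap of SPRY2 with SPRED2 and of DUSP7 with SPRY1. DUSP1 thus stood above DUSP6 in all 3 OE-MMP28 libraries, while their ranges overlapped in the Vector group. Summed over a family, the 5 phosphatases reached 183 ± 26.1 FPKM (SD, n = 3) in Vector cells and 238 ± 9.87 FPKM in OE-MMP28 cells, with no overlap. The 3 Sprouty genes summed to 47.5 ± 3.07 and 44.9 ± 0.624 FPKM, with overlap, and the 2 SPRED genes to 26.0 ± 0.293 and 21.0 ± 1.03 FPKM, without overlap. DUSP1, DUSP4, DUSP5, DUSP7 and SPRED2 were already free of overlap singly, so the separated sums are no further support. The sums were not tested, and no share of separated sums was formed for other genes. As a share of the summed FPKM of the 10 genes, the phosphatases took 71.1% ± 2.24 in the Vector group and 78.3% ± 0.921 in the OE-MMP28 group. DUSP1 and DUSP6 together dominated this sum, with 26.6% and 31.3% in the Vector group and 35.2% and 27.3% in the OE-MMP28 group. DUSP5, the gene with the largest fold change, contributed 0.424% and 1.38%.

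**Figure D3:**
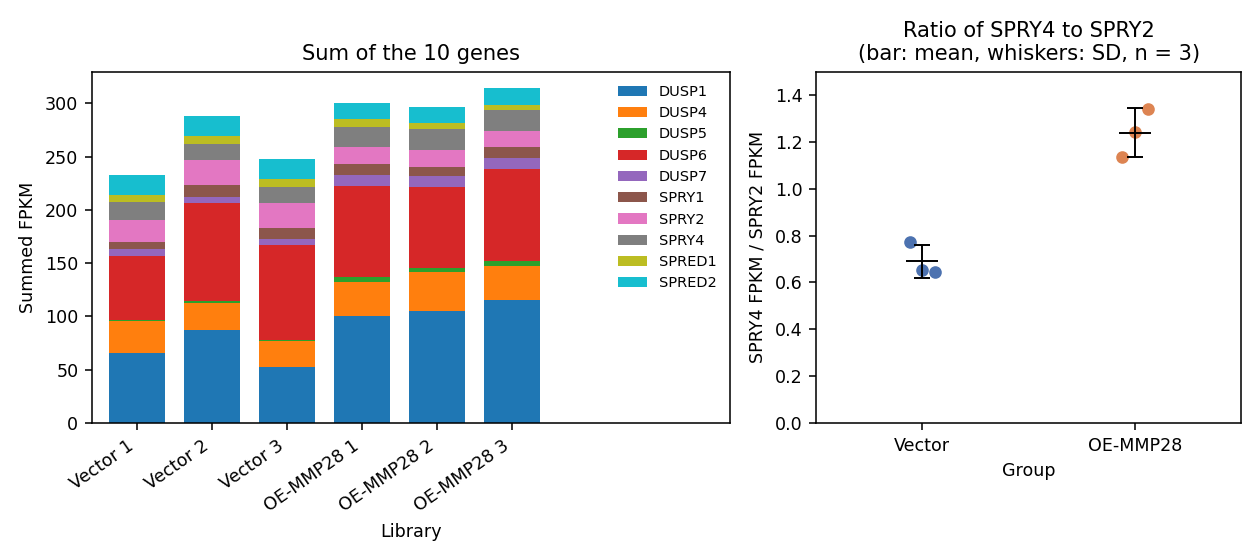
Left, FPKM of the 10 feedback genes stacked for each library, with the axis from 0. Right, the ratio of SPRY4 to SPRY2 in each library with mean and SD (n = 3 per group), on the gene lengths of the table. The OE-MMP28 stacks are taller mainly through the DUSP1 block, and the ratio lies at 0.644 to 0.773 in the Vector group and at 1.13 to 1.34 in the OE-MMP28 group.

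The remaining MAP kinase phosphatases and other brakes of the pathway were counted in the same way, and the counts below stand beside the 11.7% of all tested genes called higher and the 11.6% called lower. Of 5 other MAP kinase phosphatases, 0 were called higher and 2 lower by edgeR, namely DUSP16, which acts on JNK and p38 (3.69 ± 0.240 to 2.28 ± 0.509 FPKM, log2 fold change -0.69, adjusted p = 0.0126), and DUSP8 (log2 fold change -1.87, adjusted p = 0.0166), which had only 2 to 18 counts per library. Of 12 atypical dual-specificity phosphatases, 9 were tested, with 1 higher (DUSP23, 0.74, adjusted p = 0.0162) and 1 lower (DUSP22, -0.85, adjusted p = 0.00931). The calls of DUSP16 and DUSP8 were kept in 13 and 11 of the 15 other settings, and those of DUSP23 and DUSP22 in 12 each. Relative to its neighbouring genes DUSP22 stood at -0.42 (adjusted p = 0.223). Of 16 other negative regulators of RAS and ERK, 15 were tested and 3 were called, a number close to the 23.4% of all tested genes. CBLB, a ubiquitin ligase for activated receptors, fell from 1.80 ± 0.267 to 0.781 ± 0.185 FPKM (log2 fold change -1.19, adjusted p = 0.000351), and ERRFI1, an inhibitor of the EGF receptor, fell from 49.9 ± 11.9 to 33.3 ± 2.57 FPKM (log2 fold change -0.57, adjusted p = 0.0162). The ERRFI1 call was kept in 12 of the 15 other settings, and without Vector replicate 2 its value was -0.37 (adjusted p = 0.105). SPRED3, related to the SPRED genes above, rose at a low level of 18 to 54 counts (log2 fold change 0.94, adjusted p = 0.0437), and this call was kept in 5 of the 15 other settings.

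Genes of the cascade itself and transcription regulators of feedback genes were counted next. In each of these lists 3 genes were called in either direction, beside 23.4% of all tested genes (11.7% higher and 11.6% lower). Of 19 genes from the adaptors to ERK, ARAF was higher (8.44 ± 0.344 to 12.6 ± 1.69 FPKM, log2 fold change 0.59, adjusted p = 0.0127), and SOS1, an exchange factor for RAS (log2 fold change -0.72, adjusted p = 0.00267), and SHOC2, a scaffold for RAF activation (log2 fold change -0.56, adjusted p = 0.0199), were lower. Relative to their neighbouring genes SOS1 stood at -0.42 (adjusted p = 0.0755) and SHOC2 at -0.10 (adjusted p = 0.751), so neither call was kept there. The other 16 were not called. Of 11 transcription regulators of feedback genes, the ETS factor ELK3 was higher (log2 fold change 0.57, adjusted p = 0.00746), and the Capicua partner ATXN1L (-0.52) and CREB1 (-0.48), which binds the cAMP response element, were lower. These last calls were kept in 8 and 9 of the 15 other settings, and relative to the neighbouring genes the values were -0.14 (adjusted p = 0.615) for ATXN1L and -0.01 (adjusted p = 0.974) for CREB1. CIC, which encodes Capicua, was not called.

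Other genes known to follow ERK activity were counted beside the feedback genes. Of 15 such genes, 6 were higher (11.7% of all tested genes) and 1 was lower (11.6%), with a median log2 fold change of 0.38. FOSL1, a subunit of the AP-1 factor, rose from 58.5 ± 17.5 to 114 ± 21.2 FPKM (log2 fold change 0.98, SE 0.19, adjusted p = 0.00101). HMGA2, a chromatin protein, rose from 16.7 ± 3.48 to 32.0 ± 4.58 FPKM (log2 fold change 0.95, adjusted p = 0.000442). EPHA2, a receptor kinase, rose from 51.6 ± 5.28 to 87.7 ± 10.8 FPKM (log2 fold change 0.78, adjusted p = 0.00103). FOS, the immediate-early partner of JUN, and ETV5, an ETS factor, had log2 fold changes of 0.85 (adjusted p = 0.0045) and 0.61 (adjusted p = 0.00712). The receptor EPHA4 went the other way, from 4.80 ± 0.610 to 1.93 ± 0.190 FPKM (log2 fold change -1.30, adjusted p = 2.39e-05). The 8 genes not called included EGR1 and MYC. The number called higher was 4 without OE-MMP28 replicate 2 and 3 relative to the neighbouring genes. In the latter setting FOS stood at 0.22 (adjusted p = 0.493) and ETV5 at 0.21 (adjusted p = 0.397), so neither call was kept. Within this list and the feedback genes, transcripts that are usually read together as ERK output therefore differed in direction and size, from EPHA4 and SPRY2 below the Vector group to DUSP5 above it.

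**Figure D4:**
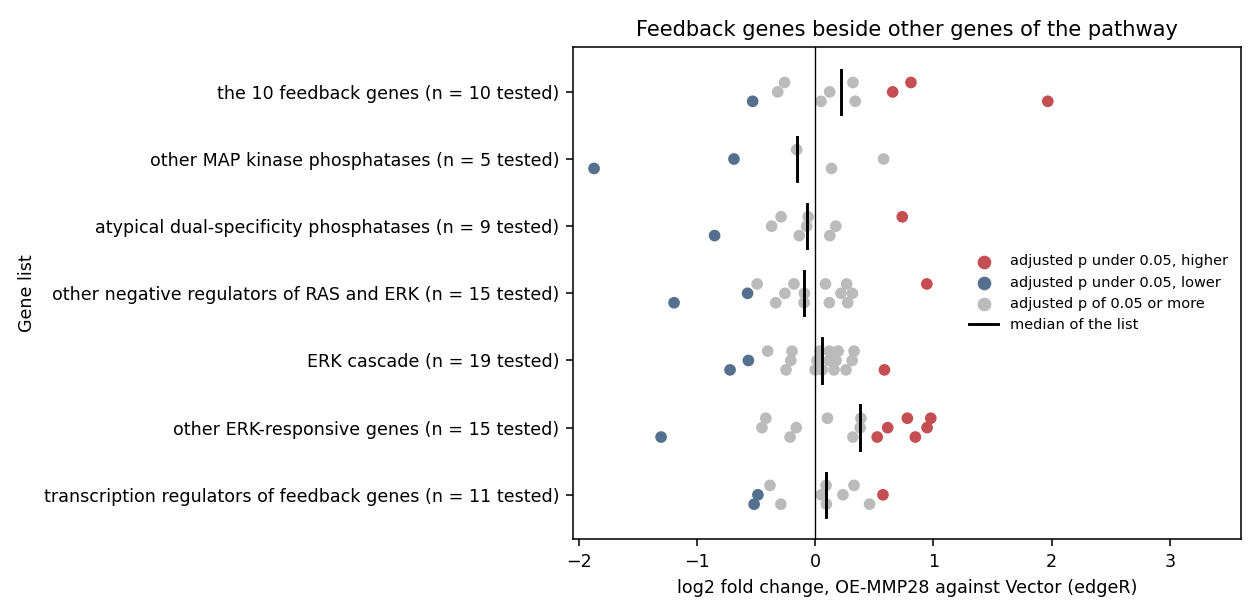
Log2 fold changes (OE-MMP28 against Vector, edgeR) of the feedback genes and of 6 lists of other pathway genes, with 1 point per tested gene, red or blue where the adjusted p was under 0.05, and the median of each list as a black line. The medians were 0.22 for the feedback genes and 0.38 for the other ERK-responsive genes, and for the other 5 lists they lay between -0.16 and 0.09.

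Over the 6 libraries, the tested genes whose centred log2 CPM profile (CPM, counts scaled by library size) was most like that of DUSP5 were CCDC81, SLC15A3 and ZNF556, with root-mean-square differences of 0.146, 0.163 and 0.171 on the log2 scale. For SPRY2 they were BBIP1, CYP4F3 and MCU, with 0.0323, 0.0327 and 0.0430. None of these 6 is a gene of the lists above.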

How the data were processed

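RNA of AsPC-1 cells was sequenced in 6 libraries. The authors deposited 1 table with unnormalized read counts per gene, gene lengths and FPKM values (counts divided by gene length and by a library size that differed by between -2.01% and 2.02% from the summed counts). The submitters' processing notes name HISAT2 2.0.5 and featureCounts 1.5.0-p3. The strand setting and the handling of reads with several matches are not given in the sources used here. Coordinates and identifiers of all 58735 genes equal those of GENCODE 29 on GRCh38, and 58708 symbols do. The deposited means, fold changes and p-values of the authors' own comparison were not used, and 0 per-sample columns were left unmapped.

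Counts were tested with edgeR 4.0.16 (R 4.3.3): filterByExpr (min.count 10, min.total.count 15), TMM scaling, quasi-likelihood test on the group alone, and Benjamini-Hochberg adjustment with a threshold of 0.05. The same code was tested on simulated data. The 95% intervals come from this fit. All genes of interest were named, and from the other lists called genes, at most 6 per list with the lowest adjusted p. The nearest profiles were sought for the called gene with the largest change in each direction, on log2 CPM (prior count 2). The feedback genes and all lists were chosen with earlier results of these data known.

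Alternatives were DESeq2 size factors and upper-quartile scaling in edgeR, no filter, DESeq2 1.42.0, limma 3.58.1 (voom, and with trend on log2(FPKM + 1) and log2(FPKM + 0.1)), the replicate number as a block, leaving out each library, and an offset for the median log2 fold change of tested neighbours within 5 Mb (at least 10). Counts of replicates differed by more than counting noise in every pair, so all libraries were kept. 3′ UTRs were taken from the principal coding GENCODE transcript and needed 100 bases.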

Additional observations from a re-analysis of the deposited data

How the results depend on the processing

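Of 150 values (10 feedback genes under 15 alternatives), 143 kept their direction and their side of the threshold. DUSP6 ranged from -0.13 to 0.16 and SPRY1 from -0.071 to 0.25 when single libraries were left out, negative only without Vector replicate 1, and SPRED2 turned to 0.17 relative to the median of its neighbours. In the same setting DUSP4 passed the threshold at 0.68. DUSP1 (0.49) and SPRY2 (-0.50) lost the call without Vector replicate 3, and SPRY2 (-0.55) also without OE-MMP28 replicate 2. The number of feedback genes called higher was 2 to 4. The number called lower was 0 to 1 when single libraries were left out, with 0 without Vector replicate 3 and without OE-MMP28 replicate 2, and it was 1 under the other alternatives. Of the 74 tested genes of the 6 other lists, 20 were called, and between 7 and 22 when single libraries were left out (7 without OE-MMP28 replicate 2 and 12 without OE-MMP28 replicate 3). Over the whole table, 1795 genes were higher and 1784 lower, against 985 and 1044 without OE-MMP28 replicate 2 and 1136 and 1231 without Vector replicate 3. A setting with 2 libraries in a group has fewer residual degrees of freedom, and beyond that the cause was not tested.

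With the replicate number as a block, 3 feedback genes were higher, 1 was lower and 20 genes of the other lists were called, and 1844 genes were higher and 1841 lower over the whole table. Deviations of libraries with the same number correlated at -0.14 to 0.03 across genes, and 0 of 6 libraries correlated best with their own number, so the numbers were not taken to pair the samples.

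With counts of 25 to 51 in the Vector group, the fold of DUSP5 is the least precise of the 10 genes. FPKM is relative to a library size, so the levels are not amounts per cell.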

Other observations

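Vector replicate 1 differed from the mean of the other Vector libraries in several genes that follow ERK, and not in 1 direction. On the log2 CPM scale it was below this mean by the following differences: -0.61 for DUSP6, -0.68 for SPRY1, -0.61 for FOS, -0.62 for IER3 and -0.82 for ETV1. It was above this mean by 0.43 for DUSP5, 0.27 for DUSP4, 0.69 for FOSL1, 0.48 for CCND1 and 0.43 for MYC. For DUSP5, however, Vector replicate 1 (1.28 FPKM) was just below replicate 2 (1.33 FPKM), and replicate 3 (0.649 FPKM) was the library apart. For FOS and IER3 the Vector libraries spanned 1.02 and 1.12 on the log2 scale. Replicates 2 and 3 thus also lay apart from each other for these genes, and replicate 1 did not stand alone. DUSP7 (0.14), SPRY4 (0.09) and SPRED2 (0.04) were near the other Vector libraries. These genes were picked after the values had been seen, and a single library allows no test.

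The ratio of DUSP6 to DUSP5, formed from FPKM within each library, was 46.9, 69.8 and 138 in the Vector libraries and 19.6, 20.1 and 19.4 in the OE-MMP28 libraries. The ratio of SPRY1 to SPRY2 was 0.309, 0.458 and 0.434 in the Vector libraries and 0.663, 0.574 and 0.664 in the OE-MMP28 libraries. Both ratios were free of overlap between the groups, but so were DUSP5 and SPRY2 alone. Of all tested genes, 19.5% had the OE-MMP28 libraries wholly above and 18.6% wholly below. Neither ratio was planned beforehand or tested, and no such share was formed for ratios of other genes.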
